A study of Mus musculus with 24 samples.

Results

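The injury response to bleomycin that remained in mice given gapmer 1 was read as a contrast between groups. It set 5 lung samples from mice that received gapmer 1 and bleomycin against 3 from mice that received gapmer 1 and PBS. These were the samples titled Bleo_GP DNM3OS-1 and PBS_GP DNM3OS-1, 8 of the 24 in the series, taken by their labels. Each of the 20728 named genes was read from the probe with the highest mean over all 24 arrays.

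Bleomycin is an antitumour antibiotic that breaks DNA. In the mouse lung it injures epithelium and capillaries, and the injury is followed by recruitment of monocytes, proliferation, fibroblast activation and scarring. A gapmer is an antisense oligonucleotide whose DNA core directs RNase H to cut the matching transcript. The gapmers numbered 1 and 3 were designed against Dnm3os, a long noncoding RNA made from the strand opposite Dnm3 that carries 2 microRNA hairpins.

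All mice were C57BL/6 and between 9 and 12 weeks old, and RNA came from whole lung. The groups were GP DNM3OS-1 + Bleo (5 samples), GP DNM3OS-1 + PBS (3), and, for comparison, GP Ctrl + Bleo (5), GP Ctrl + PBS (3), GP DNM3OS-3 + Bleo (5) and GP DNM3OS-3 + PBS (3). Every mouse, PBS mice included, carried a gapmer. Neither dose, route nor day of sampling is given for gapmer or bleomycin in the sources used here. The labels number the samples without naming animals, so p-values measure sample-to-sample spread, which may be technical. The word lungs below stands for these samples. Values are log2 Cy3 intensities of a one-colour Agilent array, a difference of 1 on this scale is a 2-fold difference, and no value of a probe is set against another probe's.

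The targeted transcript read low on the gapmer 1 arrays. Dnm3os read 6.08, 5.99, 6.12, 6.48 and 6.24 in gapmer 1 bleomycin lungs and 5.76, 5.85 and 6.06 in gapmer 1 PBS lungs. The groups overlapped, and the PBS mean of 5.89 lay under 6.11, the lower quartile of gene means, which is treated here as the dim level; a group mean under it gives only a bound. Of the 8 arrays, bleomycin replicates 3, 4 and 5 read above that level. Control gapmer lungs read 6.64 to 7.05 with bleomycin and 6.27 to 6.39 with PBS. The bleomycin change of Dnm3os under gapmer 1 was not called (limma, adjusted p = 0.151), and with the PBS mean under the dim level it is only bounded, at 0.07 or more. Its difference from the control-gapmer change is therefore not given. In bleomycin lungs Dnm3os was lower with gapmer 1 than with the control gapmer by a difference of -0.72 (adjusted p = 0.000186). In PBS lungs gapmer 1 was lower by a bound of -0.23 or further from 0, and the difference was not called (adjusted p = 0.0882). Dnm3, the dynamin gene on the opposite strand, had a bleomycin change of -0.12 (adjusted p = 0.807) under gapmer 1.

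The mature microRNAs encoded within Dnm3os are shown because their seeds decide which messages they pair with. The locus spans chr1:162217623-162225550 (GRCm38.p6) and all 4 lie inside it. The sequences are from RefSeq, written 5′ to 3′ with the seed, bases 2 to 8, in capitals.
mmu-miR-199a-5p: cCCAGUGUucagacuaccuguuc
mmu-miR-199a-3p: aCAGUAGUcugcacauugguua
mmu-miR-214-5p: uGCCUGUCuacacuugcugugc
mmu-miR-214-3p: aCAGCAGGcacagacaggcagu
No seed is shared between them, and the array probes used here do not measure the mature forms. Of 13 genes described as targets of these microRNAs, 1 rose under gapmer 1 and none fell, and the median change was -0.06. Over all genes 6.35% rose, so this count is near the background and is not a result about the targets. The member that rose was Igf1, a growth factor for mesenchymal cells. Igf1 read 11.18, 10.70, 10.83, 11.37 and 11.02 in gapmer 1 bleomycin lungs, against 9.91, 9.48 and 10.01 in gapmer 1 PBS lungs. The groups did not overlap and the change was 1.22 ± 0.14 (SE; adjusted p = 1.17e-05), against 1.62 under the control gapmer.

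Lung markers read well above the dim level in both gapmer 1 groups. Sftpb, a surfactant protein of alveolar type 2 cells, read 15.76 to 16.16 in gapmer 1 bleomycin lungs and 16.18 to 16.32 in gapmer 1 PBS lungs, and Ager, a receptor of alveolar type 1 cells, read 13.90 to 14.69 and 14.45 to 14.50. Neither was called between these groups, nor were the lung transcription factor Nkx2-1 and the claudin Cldn18. Sftpc, another surfactant protein, and Scgb1a1, the club cell secretoglobin, read 17.87 or more on each of the 8 arrays, at the top of the scale, so a change in them could not be read. RNA integrity numbers were 8.9 to 10 in gapmer 1 bleomycin samples and 8.5 to 9.4 in gapmer 1 PBS samples. Array medians lay between 6.485 and 6.495, so the arrays carry no separate depth, and their number limits the precision. The median half-width of the 95% interval of a gene's gapmer 1 change was 0.21.

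Lists for other tissues gave few calls under gapmer 1. None of 18 skeletal muscle genes, 12 adipocyte genes or 11 thymus genes was called under gapmer 1, and 1 of 15 cardiac and 2 of 7 red blood cell genes fell, both counts being 0 without gapmer 1 PBS replicate 1. The mean adipocyte level, set against the control-gapmer PBS mean, ranged from -1.77 to -0.32 in gapmer 1 bleomycin lungs and from -0.81 to 0.02 in gapmer 1 PBS lungs. The same measure for skeletal muscle ranged from -1.18 to -0.56 and from -0.77 to -0.66. Control-gapmer lungs lay further apart for skeletal muscle, at -1.84 to -1.62 with bleomycin and -0.46 to 0.67 with PBS. For adipocyte genes they ranged from -1.4 to -0.93 and from -0.38 to 0.47. With the control gapmer, 8 of 12 adipocyte genes fell, and so did 5 of 18 skeletal muscle genes. There 6 of 15 cardiac and 5 of 7 red blood cell genes fell, where 19.3% of all genes did. The difference of response was called higher for 3 adipocyte genes and 1 skeletal muscle gene, beside 4.97% of all genes. The part of such admixture in the differences between gapmers was not tested.

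Under gapmer 1, bleomycin raised 1317 of 20728 genes (6.35%) and lowered 649 (3.13%) at an adjusted p under 0.05. These were 1966 genes (9.48%), and 116 of them rose (0.56%) and 23 fell (0.111%) by more than 2-fold. Another measure was whether the 5 bleomycin and 3 PBS arrays overlapped: 1915 genes (9.24%) had every bleomycin array above every PBS array and 1170 (5.64%) had every bleomycin array below. In the control-gapmer mice the same test called 7001 genes (33.8%), 3003 higher (14.5%) and 3998 lower (19.3%). Without gapmer 1 PBS replicate 2 the gapmer 1 counts were 731 higher and 337 lower, and without gapmer 1 bleomycin replicate 4 the count of lower genes was 375. Fitted on these 8 arrays alone they were 384 higher and 101 lower, and with RNA integrity as a covariate they were 700 and 198. Of 142 named genes called under gapmer 1, 93 kept their call whichever of the 8 arrays was left out. The named genes whose change is called below are of these unless an array is given. Mki67, Birc5, Ccna2, Kdr, Bmp6, Colq, Nr1d1, Retnla and Osmr, among others of the 93, lost their call when only the 8 arrays were fitted. Inhba lost it there and with RNA integrity as a covariate, and Thbs4 with that covariate. List members that were not named genes were not followed array by array. Of 39 list counts between 1 and 4, 31 moved by more than 1.5 times in at least 1 leave-out, so small counts below are a description only. Because whole lung was used, a lower number of cells of a type and less RNA per cell cannot be told apart.

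Matrix genes were among those that rose. Spp1 encodes osteopontin, a secreted adhesive protein of injured tissue and of macrophages in scars. It read 13.33, 12.73, 12.97, 13.65 and 13.24 in gapmer 1 bleomycin lungs, against 10.56, 10.25 and 10.73 in gapmer 1 PBS lungs. Every bleomycin array was higher than every PBS array, with a gap of 2 units between the groups. The rise was 6.37-fold (log2 change 2.67 ± 0.20, SE; limma, adjusted p = 9.06e-08).

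Timp1, an inhibitor of matrix metalloproteinases, varied more among the bleomycin lungs. Its values were 11.96, 11.52, 11.75, 13.45 and 12.45 in gapmer 1 bleomycin lungs, against 10.38, 10.50 and 10.45 in gapmer 1 PBS lungs. Replicate 4 was the highest, more than 1 unit above the mean of its group, and the groups did not overlap. Timp1 rose 3.44-fold (adjusted p = 0.00036). Col1a1, a chain of type I collagen, read 14.44, 13.97, 14.11, 14.90 and 14.35 in gapmer 1 bleomycin lungs, against 13.36, 13.10 and 13.37 in gapmer 1 PBS lungs, and here too replicate 4 was highest. Its rise was 2.11-fold (adjusted p = 9.07e-05). Fn1, the adhesive protein fibronectin, averaged 15.80 ± 0.30 in gapmer 1 bleomycin lungs and 14.88 ± 0.20 in gapmer 1 PBS lungs (SD, n = 5 and 3). Thbs4, a thrombospondin, rose 3.81-fold and Lama1, a laminin chain of basement membranes, rose 3.50-fold.

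Of 16 collagen genes measured, 10 rose and none fell, with a median change of 0.43, where the median over all genes was 0.007. The rises ran from 0.37 for Col6a1 to 1.08 for Col1a1, and Col3a1 changed by 0.85. The collagen count depended on the PBS arrays, at 6 without gapmer 1 PBS replicate 1 and 3 without replicate 2; it was 2 when only the 8 arrays were fitted. Of 27 matricellular and adhesive genes, 15 rose and 1 fell (median 0.68), with 9 rising without gapmer 1 PBS replicate 2 and 6 when only the 8 arrays were fitted. The rises included Thbs1, Thbs2 (0.97), the latent TGF-beta binding protein Ltbp2 (0.96) and the hyaluronan synthase Has2 (0.87). Vtn, vitronectin, was the gene that fell (-0.40). Postn (0.01) and Sparc (-0.01), which encode secreted proteins of activated fibroblasts, did not pass the test.

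Of 19 matrix proteases and inhibitors, 9 rose and none fell (median 0.34), with 5 rising without gapmer 1 PBS replicate 2 and 4 when only the 8 arrays were fitted. Mmp19, a metalloproteinase, rose 1.90-fold. Of 15 collagen-modifying enzymes, 3 rose and none fell, where 6.35% of all genes rose. The count of rises was 0 without gapmer 1 PBS replicate 1 or 2, and 0 when only the 8 arrays were fitted. In the TGF-beta and activin list 7 of 30 genes rose and 5 fell (median 0.15), with 1 rising and 1 falling when only the 8 arrays were fitted. Grem1, a secreted antagonist of bone morphogenetic proteins, read 8.49, 7.78, 7.61, 9.22 and 7.76 in gapmer 1 bleomycin lungs, against 5.93, 6.21 and 6.16 in gapmer 1 PBS lungs. Its PBS mean was under the dim level, so the rise is given as a bound, at least 2.06 on the log2 scale (adjusted p = 0.000156). Inhba, the activin A subunit, rose by 1.19 and Bmp6, a bone morphogenetic protein, changed by -0.81. Tgfb1 itself had a change of 0.15 (adjusted p = 0.601).

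Most listed genes of recruited macrophages passed the test. Of 25 genes of monocyte-derived and scar-associated macrophages, 17 rose and none fell (median 0.70), and the count stayed between 15 and 17 whichever array was left out. Trem2, a lipid receptor of these cells, read 13.03, 12.80, 12.92, 12.94 and 12.85 in gapmer 1 bleomycin lungs, against 11.17, 10.76 and 11.49 in gapmer 1 PBS lungs. The bleomycin lungs lay close together, with an SD of 0.09, and well above the PBS lungs, with a 3.41-fold rise (adjusted p = 9.06e-08). Gpnmb, a glycoprotein of lysosome-rich macrophages, rose 2.88-fold, and Mmp12, macrophage elastase, changed by 1.57.

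Ctsd, the lysosomal protease cathepsin D, also rose. It read 16.25, 16.10, 16.18, 16.04 and 16.09 in gapmer 1 bleomycin lungs, against 15.32, 15.09 and 15.36 in gapmer 1 PBS lungs. The groups did not overlap and the rise was 1.84-fold (adjusted p = 2.63e-06). Acp5, tartrate-resistant acid phosphatase, rose 1.91-fold. Csf1r (0.20), the receptor for macrophage colony-stimulating factor, and Lyz2 (-0.01), the lysozyme of myeloid cells, did not pass the test. Of 16 genes of resident alveolar macrophages, 3 rose and 2 fell, with 1 falling without gapmer 1 PBS replicate 1 or 2. Atp6v0d2, a proton pump subunit, rose by 0.76, and Fabp1, a lipid carrier, changed by -1.84. Fabp1 read 8.61, 9.46, 9.04, 8.14 and 8.57 in gapmer 1 bleomycin lungs, against 10.51, 10.91 and 10.41 in gapmer 1 PBS lungs, with replicate 4 the lowest.

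**Figure D1:**
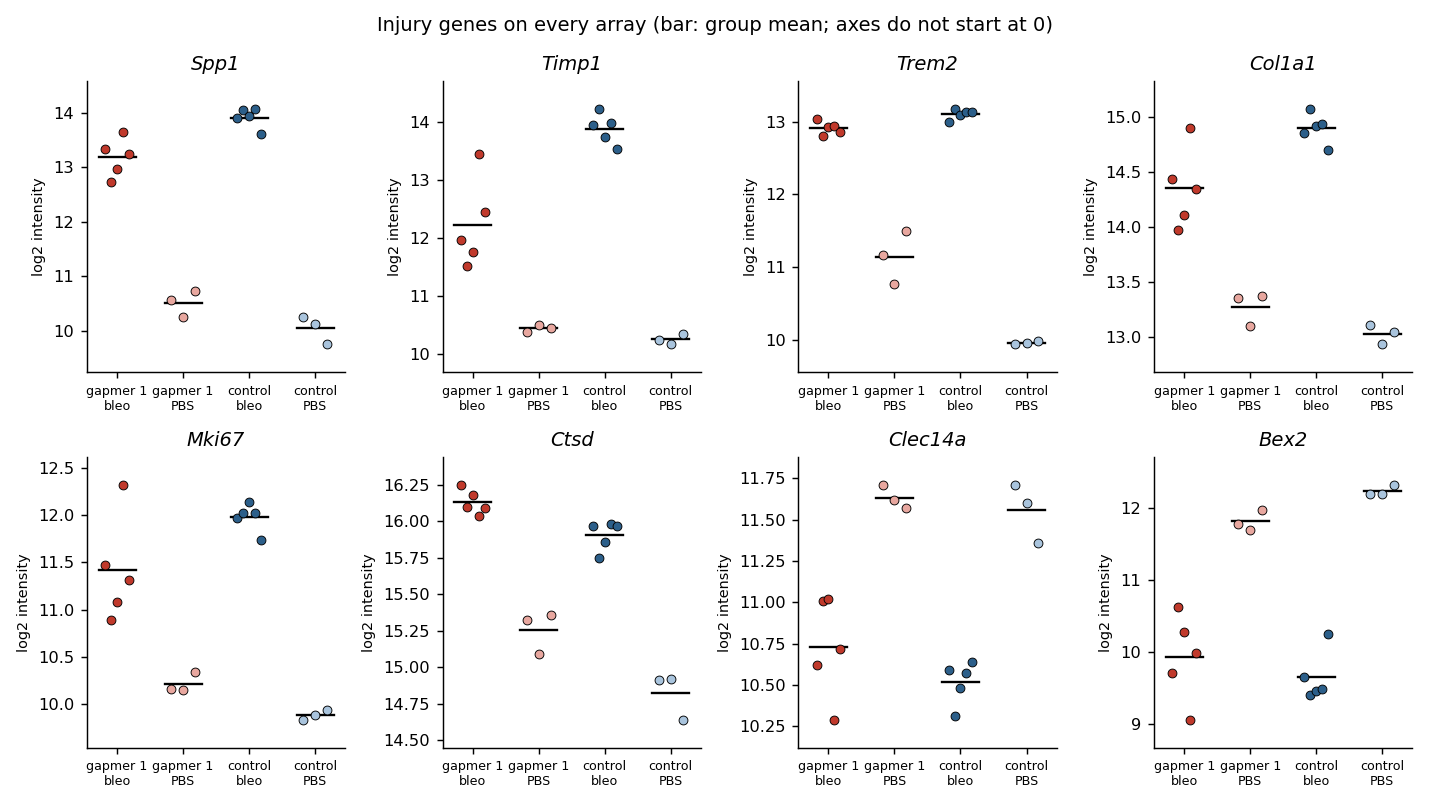
Log2 intensity of 8 genes on each array of the gapmer 1 bleomycin (5), gapmer 1 PBS (3), control gapmer bleomycin (5) and control gapmer PBS (3) groups, each point 1 array and each bar a group mean; vertical axes do not start at 0. The gapmer 1 bleomycin and PBS points do not overlap for any of the 8, and Trem2 stood higher in gapmer 1 PBS lungs (mean 11.14) than in control gapmer PBS lungs (9.96).

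Most listed proliferation genes passed the test when all 24 arrays were fitted. Of 35 cell cycle genes, 25 rose and none fell, with a median change of 0.88, and leaving out any array gave 21 to 27. When only the 8 arrays were fitted, 12 rose. Mki67, the Ki-67 antigen of cycling cells, read 11.47, 10.89, 11.08, 12.32 and 11.32 in gapmer 1 bleomycin lungs, against 10.16, 10.15 and 10.34 in gapmer 1 PBS lungs. Replicate 4 was again the highest and the groups did not overlap, with a 2.30-fold rise (adjusted p = 0.000492). Plk1, a kinase of mitotic entry, rose 2.41-fold, Prc1, which bundles spindle midzone microtubules, rose 2.47-fold, and Birc5, survivin, rose 2.51-fold. Ccna2, cyclin A2, changed by 1.37 and Cdk1, its kinase partner, by 1.16. The replicative helicase subunits Mcm2 (0.74), Mcm3 (0.48), Mcm5 (1.11) and Mcm6 (0.58) rose. Mcm4 (0.34) and Mcm7 (0.29) did not pass the test, and Aurkb, a kinase of the chromosomal passenger complex, had means under the dim level in both groups.

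Promoters of these genes are shown because 25 genes of the list rose and because many mitotic genes are known to be controlled through CCAAT boxes and the CHR element, TTTGAA. Both motifs were searched on both strands over 250 bases before to 50 after the annotated start; matches that overlapped each other were counted. RefSeq promoters were found for 21 of the 25 cell cycle genes that rose. Of these, 19 (90.5%) held CCAAT, 13 (61.9%) held TTTGAA and 13 (61.9%) held both. Among 8 of the 10 uncalled members the shares were 62.5%, 37.5% and 37.5%. Over all 27025 promoters they were 37.9%, 18.1% and 7.12%. The 4 promoters below, chosen after their motifs were known, are those of Plk1 (chr7:122159185-122159484, plus strand), Prc1 (chr7:80294201-80294500, plus strand), Mki67 (chr7:135716330-135716629, minus strand) and Birc5 (chr11:117848987-117849286, plus strand), all GRCm38.p6. Capitals mark the motifs, which may read on either strand.
Plk1: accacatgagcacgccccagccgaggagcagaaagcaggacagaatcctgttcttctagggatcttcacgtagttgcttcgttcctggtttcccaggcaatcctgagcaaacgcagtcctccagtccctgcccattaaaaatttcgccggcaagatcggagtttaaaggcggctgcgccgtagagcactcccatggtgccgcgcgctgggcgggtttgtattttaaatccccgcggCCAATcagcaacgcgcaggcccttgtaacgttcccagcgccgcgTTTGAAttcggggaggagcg
Prc1: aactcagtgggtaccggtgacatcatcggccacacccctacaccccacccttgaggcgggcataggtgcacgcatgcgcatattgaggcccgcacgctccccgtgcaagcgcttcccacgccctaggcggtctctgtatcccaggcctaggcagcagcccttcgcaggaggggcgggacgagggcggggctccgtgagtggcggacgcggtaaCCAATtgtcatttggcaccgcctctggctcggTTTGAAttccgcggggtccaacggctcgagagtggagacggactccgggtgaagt
Mki67: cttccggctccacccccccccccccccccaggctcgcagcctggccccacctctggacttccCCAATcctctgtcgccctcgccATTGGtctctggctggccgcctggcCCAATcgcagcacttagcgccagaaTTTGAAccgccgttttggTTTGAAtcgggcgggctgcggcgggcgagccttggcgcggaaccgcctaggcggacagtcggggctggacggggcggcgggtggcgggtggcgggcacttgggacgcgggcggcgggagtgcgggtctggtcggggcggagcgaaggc
Birc5: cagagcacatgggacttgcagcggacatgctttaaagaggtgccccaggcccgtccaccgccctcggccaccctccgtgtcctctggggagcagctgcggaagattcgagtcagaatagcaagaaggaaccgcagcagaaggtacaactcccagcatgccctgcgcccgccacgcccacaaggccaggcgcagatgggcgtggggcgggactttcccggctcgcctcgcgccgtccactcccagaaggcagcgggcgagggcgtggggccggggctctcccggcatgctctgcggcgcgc
Plk1 and Prc1 each held 1 CCAAT followed by 1 TTTGAA close to the start. Mki67 held 3 CCAAT motifs and 2 TTTGAA motifs further upstream. Birc5, which rose as much as the others, held neither string in this window. A match is a description of the letters and not evidence of binding.

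Genes of the DNA damage response rose in part. Of 23 targets of the transcription factor p53, 7 rose and none fell (median 0.16), and every leave-out gave 7 or 8. The risers included Cdkn1a, the cell cycle inhibitor p21, at 12.74, 12.17, 12.29, 12.75 and 12.25 in gapmer 1 bleomycin lungs, against 11.33, 11.48 and 11.39 in gapmer 1 PBS lungs. Those groups were separate and the rise was 2.05-fold (adjusted p = 0.000317). Gdf15, a stress cytokine, rose 2.23-fold, Tnfrsf10b, a death receptor, 1.65-fold and Ccng1, cyclin G1, 1.63-fold. Mdm2 (0.06), the ubiquitin ligase of p53, and Bbc3 (-0.08), a pro-apoptotic factor, did not pass the test.

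Epithelial genes were read from several lists. Of 17 genes of damage-associated transitional epithelium 8 rose and none fell (median 0.28), with 4 rising when only the 8 arrays were fitted. Krt8, a keratin of simple epithelia, averaged 14.39 ± 0.13 in gapmer 1 bleomycin lungs and 13.84 ± 0.14 in gapmer 1 PBS lungs (SD, n = 5 and 3) and rose 1.47-fold. None of 19 alveolar type 2 genes was called. The 16 alveolar type 1 genes gave 1 rise, Spock2, a proteoglycan (0.84), and 1 fall, Cav2, a caveolin (-0.31). The Cav2 call was lost without gapmer 1 PBS replicate 1 (adjusted p = 0.0605) or 2. Over all genes 6.35% rose and 3.13% fell, so these single calls are not a result about the list. Retnla, a secreted resistin-like molecule, rose 2.68-fold and Slc26a4, the anion exchanger pendrin, rose 2.57-fold. These were the 2 of 17 airway secretory genes to rise, beside 6.35% of all genes, and the count is a description only. Pigr fell (-0.32), a call lost without gapmer 1 PBS replicate 2 or 3 or bleomycin replicate 1, 4 or 5. With the control gapmer 9 of the 17 rose and 3 fell, and 7 differences were called lower under gapmer 1. Phgr1, a small histidine- and glycine-rich protein, read 10.85, 10.08, 10.38, 10.87 and 10.72 in gapmer 1 bleomycin lungs, against 8.84, 8.71 and 8.82 in gapmer 1 PBS lungs, and rose 3.46-fold.

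Chemokine, complement and acute-phase lists held rises. Of 27 chemokines 10 rose and 1 fell (median 0.42). Ccl12, a monocyte chemoattractant, read 9.57, 9.10, 9.30, 10.49 and 10.05 in gapmer 1 bleomycin lungs, against 8.0, 7.95 and 7.90 in gapmer 1 PBS lungs. The groups did not overlap and Ccl12 rose 3.37-fold (adjusted p = 2.7e-05). Ccl9 changed by 1.40, and Cx3cl1, fractalkine, was the member that fell (-0.54). Of 20 complement genes 9 rose and none fell (median 0.45), and every leave-out gave 9 or 10. C1qa, C1qb and C1qc, the chains of the first complement component, changed by 1.29, 1.3 and 1.31, and these 3 genes are also counted in the macrophage list. C3ar1, the receptor of a complement fragment, rose 2.54-fold.

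Of 17 acute-phase genes 7 rose and 1 fell (median 0.47), with 4 rising when only the 8 arrays were fitted. Lcn2, the iron-scavenging lipocalin, read 15.72, 15.64, 15.53, 15.63 and 15.53 in gapmer 1 bleomycin lungs, against 14.43, 14.31 and 14.57 in gapmer 1 PBS lungs. The bleomycin arrays spread by less than 0.20 and lay more than 0.90 above the PBS arrays, and the rise was 2.25-fold (adjusted p = 3.59e-07). Among 17 T cell genes 1 rose, Pdcd1, an inhibitory receptor (0.90). Among 14 B and plasma cell genes 1 rose, and both counts are near the 6.35% of all genes that rose. The B and plasma cell gene was Jchain, the joining chain of secreted antibodies (1.70), whose call held in 4 of 8 leave-outs. It was lost without gapmer 1 PBS replicate 2 (0.83, limma, adjusted p = 0.355) and without bleomycin replicate 1, 4 or 5. Of 15 NK and cytotoxic genes 4 fell, and this count was 0 without gapmer 1 PBS replicate 1 or 2, 7 without replicate 3 and 1 without gapmer 1 bleomycin replicate 4. Of 24 interferon response genes 4 rose and 1 fell. The rises numbered 2 without gapmer 1 PBS replicate 2 and 1 when only the 8 arrays were fitted. Over all genes 6.35% rose and 3.13% fell, and the NK and interferon counts are a description only.

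Capillary genes were among the falls. Of 23 endothelial genes 10 fell and none rose (median -0.38), with 4 falling without gapmer 1 PBS replicate 2, 6 without replicate 3, 2 when only the 8 arrays were fitted and 3 with RNA integrity as a covariate. Clec14a, a lectin of endothelial cells, read 10.62, 11.01, 11.02, 10.29 and 10.72 in gapmer 1 bleomycin lungs, against 11.71, 11.62 and 11.57 in gapmer 1 PBS lungs. Every bleomycin array was lower, with a change of -0.90 (adjusted p = 0.000111). Kdr, the main receptor for vascular endothelial growth factor, averaged 12.80 ± 0.26 in gapmer 1 bleomycin lungs and 13.44 ± 0.12 in gapmer 1 PBS lungs (SD, n = 5 and 3). The apelin ligand Apln and its receptor Aplnr both changed by -0.62. Pecam1 (-0.36) and Cldn5 (-0.36), a tight junction protein, did not pass the test. Outside the list, Angpt2, a vessel-destabilising ligand, changed by -0.75 and Esm1, a proteoglycan of tip cells, by -1.22.

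Bex2, a small protein of the brain-expressed X-linked family, had the largest change among the named falls whose call withstood every leave-out. It read 9.71, 10.62, 10.27, 9.06 and 9.99 in gapmer 1 bleomycin lungs, against 11.77, 11.70 and 11.97 in gapmer 1 PBS lungs. The groups lay more than 1 unit apart and the change was -1.88 (adjusted p = 9.68e-05). Colq, the collagen tail of acetylcholinesterase, changed by -1.66, with an SD of 0.97 among the bleomycin lungs. Sirt5, a mitochondrial deacylase, had a nominal change of -1.90. Gapmer 1 PBS replicate 1 read 14.74 where the other PBS arrays read 10.40 and 10.28, and without it the change was -0.43 (adjusted p = 0.0112). The call was lost without gapmer 1 bleomycin replicate 1, 4 or 5, at an adjusted p of up to 0.0805.

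Some immediate early and clock genes also changed. Of 14 immediate early genes 5 fell and 1 rose (median -0.38), with 3 falling without gapmer 1 PBS replicate 2 or 3. With the control gapmer, 3 rose and 1 fell. Egr1, a growth factor-induced transcription factor, read 10.16, 10.05, 10.68, 11.02 and 10.63 in gapmer 1 bleomycin lungs, against 11.66, 11.76 and 12.02 in gapmer 1 PBS lungs. The groups did not overlap and the change was -1.30 (adjusted p = 0.00539). Control-gapmer lungs read 10.54 to 11.03 with bleomycin and 10.55 to 10.89 with PBS. Egr1 was thus higher in gapmer 1 PBS lungs than in either control-gapmer group. Under gapmer 1, Nr4a1, an orphan nuclear receptor, changed by -1.32 and Dusp1, a phosphatase of mitogen-activated kinases, by -1.0.

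Of 17 clock genes 3 rose and 1 fell. Per1 and Per2, repressors in the clock loop, changed by 0.82 and 0.73, and Nr1d1, the nuclear receptor REV-ERB alpha, by -0.99. Per1 read 13.31, 13.88, 14.04, 13.44 and 13.60 in gapmer 1 bleomycin lungs, against 12.89, 12.41 and 13.19 in gapmer 1 PBS lungs. The Per1 call was lost when the mean of its probes was used or when only these groups were fitted. The labels give no hour of sampling, and its part in these genes was not tested. Igfbp3, a carrier of insulin-like growth factors, changed by -1.27. In the unfolded protein list, 4 of 19 genes rose and 1 fell, beside 6.35% and 3.13% of all genes. The rises included Manf, a secreted endoplasmic reticulum factor (0.38), and numbered 2 without gapmer 1 PBS replicate 1.

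**Figure D2:**
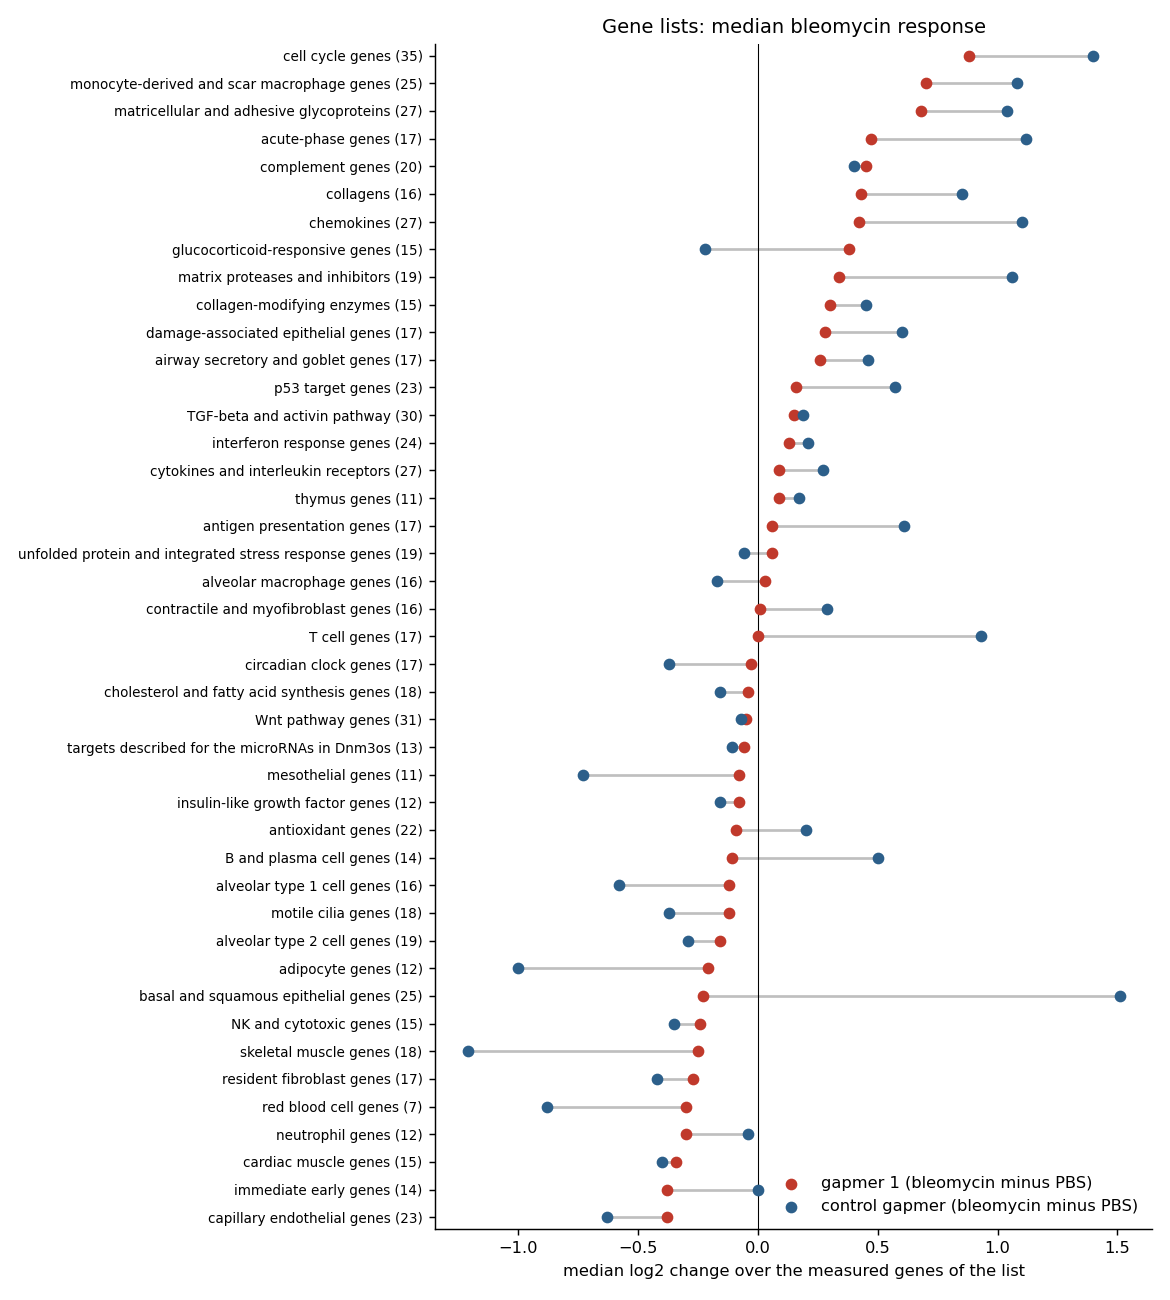
Median log2 change from PBS to bleomycin over the measured genes of each list (number in brackets) under gapmer 1 and under the control gapmer. The cell cycle list lies highest under gapmer 1 (0.88) and the capillary endothelial list shares the lowest place with the immediate early list (-0.38 each).

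The next comparison asked which responses matched those of control-gapmer mice and which differed. The difference of the gapmer 1 and control-gapmer responses was called for 1597 genes (7.7%), 1030 higher (4.97%) and 567 lower (2.74%) under gapmer 1. It was called for 1243 genes (6%) whose response passed the test under the control gapmer and not under gapmer 1, and for 85 (0.41%) with the opposite order. For 4225 genes (20.4%) called under the control gapmer only, the difference was not called, so a lost call there is not evidence of a changed response. The number of differences was 802 without control gapmer PBS replicate 1 and 2574 without gapmer 1 bleomycin replicate 4; it was 969 without control gapmer bleomycin replicate 2, 857 without control gapmer PBS replicate 3, and 882 and 859 without gapmer 1 PBS replicates 1 and 2. Array weights gave 3251.

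Responses called under both gapmers with the same sign numbered 1013 higher (4.89%) and 499 lower genes (2.41%). The shared rises were 76.9% of those called under gapmer 1 and 33.7% of those called under the control gapmer. The shared falls were 76.9% and 12.5%. A gene was termed kept when it was called in both with the same sign and the 95% interval of the difference lay within 1.5-fold on either side. Kept rises numbered 540 (2.61%) and kept falls 234 (1.13%), together 774, and this total was 379 without gapmer 1 PBS replicate 2, 490 without replicate 1, 497 without gapmer 1 bleomycin replicate 4 and 358 with RNA integrity as a covariate.

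Several kept genes are known from myeloid cells. Clec4d, a C-type lectin of myeloid cells, read 10.83, 10.76, 11.18, 11.01 and 11.09 in gapmer 1 bleomycin lungs, against 10.02, 9.56 and 10.16 in gapmer 1 PBS lungs. Its change of 1.06 stood beside 1.18 under the control gapmer, and the difference of -0.12 had an interval from -0.51 to 0.27. Acp5 changed by 0.93 and 1.20, and Ctsd by 0.88 and 1.08. Thbs1, thrombospondin 1, changed by 0.99 and 1.05, and Malt1, a paracaspase of NF-kappaB signalling, by 0.95 and 1.01. Of 17 damage-associated epithelial genes 5 were kept, Krt8 (0.56 and 0.64) and the protease Ctsh (0.65 and 0.78) among them. Of 23 p53 targets 5 were kept, with Tnfrsf10b at 0.72 and 0.70 and Ccng1 at 0.71 and 0.81.

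Kept falls included Clec14a, which changed by -0.90 under gapmer 1 and -1.04 under the control gapmer, with a difference of 0.15 (interval -0.22 to 0.52). Angpt2 changed by -0.75 and -0.99. Cd300e, a receptor of nonclassical monocytes, changed by -0.84 and -1.02. Phgr1, with 1.79 under gapmer 1 and 1.70 under the control gapmer, had an interval of the difference from -0.45 to 0.63, just too wide for this definition.

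**Figure D3:**
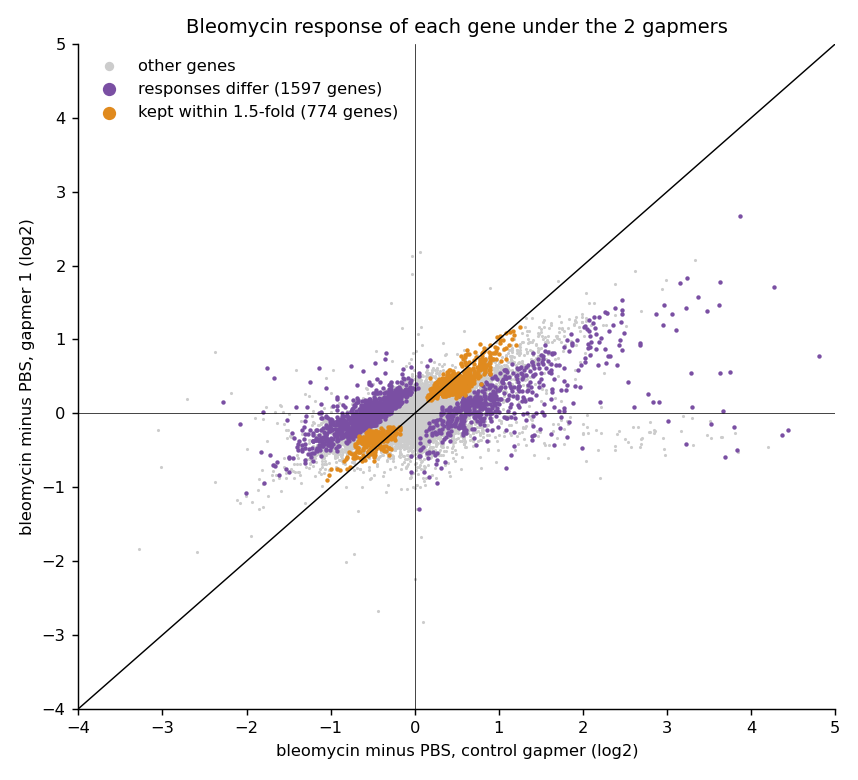
Log2 bleomycin change of each gene under gapmer 1 (vertical) against the control gapmer (horizontal), with the line of equal change; 2 genes lie outside the axes. The 774 kept genes follow the line, and the 1597 genes with a called difference lie off it.

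Several named genes had a smaller response under gapmer 1, and they differed in whether their bleomycin or their PBS levels stood apart. Timp1 read 13.53 to 14.22 in control-gapmer bleomycin lungs, against 10.17 to 10.34 in control-gapmer PBS lungs, and its response was smaller under gapmer 1 by a difference of -1.85 (adjusted p = 0.0101). Its bleomycin level was lower with gapmer 1 (-1.66, adjusted p = 0.000198), and the PBS levels were close (0.19, adjusted p = 0.807). Trem2 showed the other arrangement. Its response difference was -1.38 (adjusted p = 0.0003), while its bleomycin levels differed by -0.19 (adjusted p = 0.347) and its PBS level was higher with gapmer 1 by 1.19 (adjusted p = 0.00132).

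Gpnmb resembled Trem2, with bleomycin levels 0.02 apart (adjusted p = 0.953) and a PBS level higher by 0.97 (adjusted p = 0.0195). Cdkn1a did too, with -0.11 (adjusted p = 0.734) in bleomycin lungs and 0.93 (adjusted p = 0.0223) in PBS lungs. Between PBS lungs, gapmer 1 and the control gapmer differed in 230 genes (1.11%), and between bleomycin lungs in 2186 (10.5%). Spp1 had a response difference of -1.20 (adjusted p = 0.0151), which was -1.06 (adjusted p = 0.0506) without control gapmer PBS replicate 3. Tnc, tenascin C, had bleomycin means of 7.12 under gapmer 1 and 8.16 under the control gapmer. Its control-gapmer PBS mean of 5.91 lay under the dim level, so its difference of response is a bound, -1.19 or further from 0 (adjusted p = 0.0003).

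Within several lists the called differences were toward smaller changes under gapmer 1. The difference was called lower for 5 of 35 cell cycle genes, 9 of 25 macrophage genes, 11 of 27 chemokines and 8 of 17 acute-phase genes, with none higher in these lists, where 2.74% of all genes were called lower. For the capillary list, 5 of 23 were called higher, a smaller fall, where 4.97% of all genes were called higher. Of 16 contractile and myofibroblast genes none was called under gapmer 1 (median 0.01), 7 rose under the control gapmer (median 0.29) and 3 differences were called. Acta2, smooth muscle actin, read 13.40, 13.32, 13.40, 13.82 and 13.07 in gapmer 1 bleomycin lungs, against 13.43, 13.51 and 13.19 in gapmer 1 PBS lungs. These groups overlapped (0.02, adjusted p = 0.948), whereas control-gapmer lungs read 13.79 to 14.26 with bleomycin and 13.01 to 13.34 with PBS. The difference of response was -0.87 (adjusted p = 0.0101).

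T cell genes were among the differences. Of 17, 15 rose under the control gapmer with a median of 0.93, and 10 differences were called lower under gapmer 1. Pdcd1 averaged 7.47 ± 0.38 in gapmer 1 bleomycin lungs and 6.57 ± 0.10 in gapmer 1 PBS lungs (SD, n = 5 and 3), and the response was smaller by -1.18 (adjusted p = 0.00713). The mean thymus level, set against the control-gapmer PBS mean, ranged from -0.09 to 1.58 in control-gapmer bleomycin lungs and from -0.18 to 0.06 in gapmer 1 bleomycin lungs, and its part in the T cell genes was not tested.

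Basal and squamous epithelial genes gave 1 rise among 25 under gapmer 1 (median -0.23), Krt17, whose call was lost without gapmer 1 PBS replicate 2 or 3, and 13 rises under the control gapmer (median 1.51), with 9 differences called lower. The PBS levels also stood apart between gapmer 1 and the control gapmer, and they varied widely within other PBS groups. The mean of the list was set against the control-gapmer PBS mean. It was 1.37 to 1.5 in gapmer 1 bleomycin lungs, 1.48 to 1.91 in gapmer 1 PBS lungs and 1.72 to 2.06 in control-gapmer bleomycin lungs. In control-gapmer PBS lungs it ranged from -0.92 to 0.7, and in gapmer 3 PBS lungs from -0.86 to 1.86. Krt5, a basal cell keratin, read 11.61 to 12.14 in gapmer 1 bleomycin lungs, against 11.92, 12.71 and 11.95 in gapmer 1 PBS lungs. In control-gapmer PBS lungs Krt5 read 9.53, 10.01 and 6.66, and its response difference of -4.68 (adjusted p = 0.028) was -3.64 (adjusted p = 0.0983) without control gapmer PBS replicate 3. Krt17, another keratin of stressed epithelium, differed mostly in bleomycin lungs. It read 6.39 to 7.02 in gapmer 1 bleomycin lungs and 9.30 to 9.97 in control-gapmer bleomycin lungs, and its response difference is a bound of -3.00 or further from 0 (adjusted p = 2.58e-09), because the control-gapmer PBS mean of 5.92 lay under the dim level.

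Per1 and Per2 differed in the opposite sense. Per1 had a response of 0.82 under gapmer 1 and -0.34 under the control gapmer, a difference of 1.17 (adjusted p = 0.0081). Per2 had 0.73 and -0.35, a difference of 1.08 (adjusted p = 0.000591). Both were lower in gapmer 1 PBS lungs than in control-gapmer PBS lungs, by differences of -1.28 (adjusted p = 0.00427) and -0.67 (adjusted p = 0.021). In bleomycin lungs Per1 differed by -0.11 (adjusted p = 0.729).

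**Figure D4:**
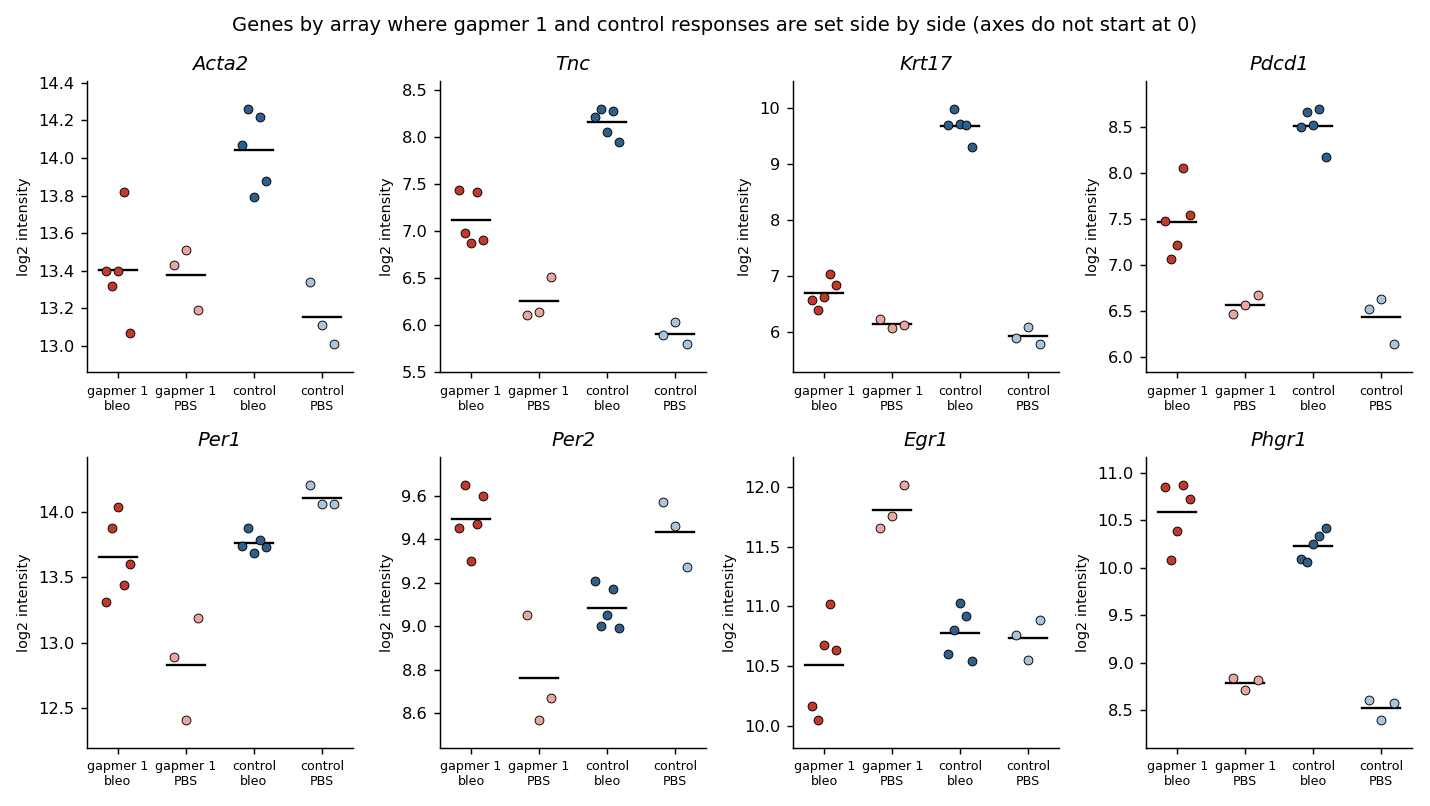
Log2 intensity of 8 genes on each array in the same 4 groups, each point 1 array and each bar a group mean; vertical axes do not start at 0. Acta2 overlaps between gapmer 1 bleomycin and PBS lungs, Krt17 stays at or under 7.02 in both gapmer 1 groups, and Per1 and Per2 have their lowest group means in gapmer 1 PBS lungs.

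The response under gapmer 1 was also set against that under gapmer 3, the other oligonucleotide against Dnm3os. The difference of these responses was called for 2 genes (0.00965%) by limma, at an unadjusted p under 0.05 for 1151 (5.55%), and with array weights for 8. The called genes were Spag11b, a sperm-associated antigen of the beta-defensin type, and Ptprs, a receptor tyrosine phosphatase. Spag11b changed by -0.94 under gapmer 1 and -2.98 under gapmer 3, and Ptprs by 0.05 and 0.62. Few calls do not show that the responses were equal. The count was 12 without gapmer 1 PBS replicate 2. Rises under gapmer 3 numbered 1455 (7.02%), and 934 genes rose under both, 70.9% of the gapmer 1 rises and 64.2% of the gapmer 3 rises.

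Genes were also chosen by their bleomycin change in gapmer 3 mice, a called rise of more than 2-fold. The size of that change used no gapmer 1 array. The call did, because its variance was pooled over all arrays, and the gapmer 1 calls used the same variance. The counts called under gapmer 1 are therefore not independent of the choice. The 189 genes so chosen had a median change of 1.05 under gapmer 1 and 1.71 under the control gapmer. Of these genes 176 were called under gapmer 1, where 6.35% of all genes rose. Set against the control-gapmer PBS mean, the mean of these genes was 1.44, 1.00, 1.09, 1.88 and 1.40 in gapmer 1 bleomycin lungs, against 0.32, 0.20 and 0.36 in gapmer 1 PBS lungs. Replicate 4 was the highest of the bleomycin lungs and replicate 2 the lowest. Control-gapmer bleomycin lungs gave 1.61 to 1.95. Between gapmer 1 and the control gapmer, the median level of these genes was lower by a difference of -0.45 in bleomycin lungs and higher by 0.27 in PBS lungs. The 50 genes chosen for a fall had medians of -0.82 under gapmer 1 and -1.43 under the control gapmer, and 36 were called under gapmer 1.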

How the data were processed

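RNA of 24 samples of whole mouse lung was measured on one-colour (Cy3) Agilent arrays. The deposited table holds log2 intensities for 62976 features, and the submitters' processing notes name limma with no version. Values on all arrays follow nearly the same distribution (array medians 6.485 to 6.495), as after quantile normalisation between arrays; background correction is not given in the sources used here. Probe names came from the platform annotation, updated through RefSeq: 31465 features had 1 symbol and 31511 had none, which gave 20774 symbols. The feature with the highest mean represented each of 20728 genes, and 6176 genes had more than 1 feature. The 25th percentile of the gene means, 6.11, was taken as the dim level, and a group mean beneath it gives only a bound.

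limma 3.58.1 (R 4.3.3) fitted 6 group means to all 24 arrays, with empirical Bayes variances and no covariate; there were 18 residual degrees of freedom. p-values were two-sided and adjusted by Benjamini-Hochberg over all 20728 genes, and an adjusted p under 0.05 was called. In data simulated at these variances, with 200 genes changed, the gapmer 1 contrast recovered 79.1% of genes changed by 1.5-fold, 92.5% by 2-fold and 100% by 4-fold, and 5.24% of calls were false. For the difference of responses from the control gapmer the shares were 58.2%, 83.6% and 97%, with 4.79% false. The simulated errors were independent, with the same spread in every group, and far fewer genes changed than were called here. These shares may therefore not hold for the real arrays.

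The samples, 43 gene lists and tests were chosen with earlier results of these data known. Named genes were 25 fixed genes, the 12 largest rises and falls among called, non-overlapping genes above the median level of 8.54, up to 4 called members of each list, the 8 largest differences of response from the control gapmer in each direction and the 4 from gapmer 3, and the 8 largest kept rises and falls. List members given outside this rule were chosen after their values were seen. Lists are described by counts and medians, with no list test. Alternatives left out each array and changed the normalisation, variance model, feature rule, arrays fitted and covariates. Promoter and microRNA sequences were read from RefSeq (GRCm38.p6). Figures were drawn with matplotlib 3.10.9.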

Additional observations from a re-analysis of the deposited data

Results flagged for a closer look

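A single gapmer 1 bleomycin array stood far from the other 4 in 7 of 172 named genes (4.07%), and chance gives about 1 in 20 such groups. Replicate 4 was the array in 4 of them: the activin antagonist Fst read 11.01 against 8.90 to 9.24 on the others, the mucus cell gene Clca1 14.00 against 10.30 to 10.78, the granzyme Gzma 11.39 against 12.22 to 12.52, and the alveolar claudin Cldn18 9.96 against 10.38 to 10.47. Replicate 5 stood apart in Igf2r (11.72 against 11.26 to 11.35) and Tgfb1 (9.96 against 10.41 to 10.56), and replicate 2 in Dnm3 (8.46 against 7.14 to 7.47).

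The bleomycin response differed between gapmer 1 and the control gapmer in 55 of the 172 named genes by limma's test of the difference, 40 lower and 15 higher. Of these, 16 were named for the size of that very difference, so the count says nothing of genes in general, of which 7.7% were called, 567 lower and 1030 higher. Among matrix genes the differences (log2, gapmer 1 minus control gapmer) were -0.79 for Col1a1, -0.70 for Col3a1, -0.63 for Fn1, -1.39 for Tnc, -2.17 for the elastin gene Eln, -1.20 for Spp1, -1.85 for Timp1, -1.80 for Mmp12, -2.09 for the aggrecanase Adamts4 and -0.87 for Acta2. The control-gapmer PBS means of Mmp12 (6.09) and Tnc lay under the dim level, as did that of Krt17, and with those means set at the dim level the differences were -1.78, -1.19 and -3.00. The fibroblast integrin Itga8 differed by 0.72. Among macrophage and inflammatory genes they were -1.38 for Trem2, -0.94 for Gpnmb, -0.49 for the integrin Itgax, -0.82 for C1qb, -2.74 for arginase 1 (Arg1), -1.06 for Ccl9, -1.71 for Ccl2, -1.20 for Ccl7, -1.50 for Il6, -2.56 for Saa3, -1.12 for Serpina3n, -0.96 for Hmox1 and -1.18 for Pdcd1. The chemokine scavenger Ackr4 differed by 0.93.

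Among epithelial genes the differences were -4.68 for Krt5, -4.32 for Krt15, -4.28 for Krt14, -3.19 for Krt17, -3.12 for the cornified envelope gene Sprr1a, -4.04 for Clca1, -1.56 for the claudin Cldn4, -1.79 for Retnla, -0.92 for Slc26a4, -1.41 for the ion transport regulator Fxyd4 and 0.61 for Cav2. Signalling and cycle genes gave -0.80 for Plk1, -1.04 for Cdkn1a, -1.35 for Egr1, -0.98 for the Wnt antagonist Sfrp1, -1.98 for the ligand Wnt10a, 1.15 for Igfbp6, 1.17 for Per1 and 1.08 for Per2. The immunoglobulin segment Igkv5-39 gave -3.63 and the adhesion gene Chl1 -3.09.

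The other positive differences were 8.87 for the muscle myosin Myh2, 2.44 for the adipokine Retn, 2.37 for Cyp2e1, 1.93 for the lipid droplet gene Cidec, 1.81 for Cys1, 1.76 for Zbtb16, 1.68 for Cfd, 1.41 for the chaperone Hsph1 and 0.85 for Spag11b. Myh2 ranged from 9.17 to 12.47 in gapmer 1 bleomycin lungs and from 6.95 to 11.23 in gapmer 1 PBS lungs. In control-gapmer lungs Myh2 read 5.91 to 6.26 with bleomycin, near the dim level, and 11.81, 13.89 and 13.02 with PBS. Its gapmer 1 change was not called (2.08, limma, adjusted p = 0.508). Nor was that of Retn, Cyp2e1, Cidec, Cys1, Zbtb16, Cfd or Hsph1. In control-gapmer lungs each of these genes had a lower mean with bleomycin than with PBS. The part of the muscle and adipocyte lists, whose spread is given above, was not tested. Of the 55 calls, 27 stood whichever of the 16 arrays was left out. The 28 lost at least once were those of Ackr4, C1qb, Ccl2, Ccl7, Ccl9, Cfd, Cidec, Clca1, Col1a1, Col3a1, Cyp2e1, Egr1, Fn1, Hmox1, Hsph1, Igkv5-39, Il6, Itga8, Krt14, Krt15, Krt5, Myh2, Plk1, Retn, Sfrp1, Spp1, Sprr1a and Zbtb16. Against gapmer 3 the response differed by 2.04 for Spag11b and -0.58 for Ptprs.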

How the results depend on the processing

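No count or named gene changed direction with its call under any alternative run. Genes higher under gapmer 1 numbered 384 and genes lower 101 when only the groups compared were fitted, and 700 and 198 with RNA integrity number as a covariate, which also gave 358 kept genes. Array weights gave 3251 genes with a response different from the control gapmer and 8 different from gapmer 3. Leaving out 1 array gave 731 to 1473 higher genes, 337 to 800 lower genes, 802 to 2574 differences from the control gapmer, 2 to 12 differences from gapmer 3 and 379 to 938 kept genes. The other alternatives were normalisation applied again, median centring, robust or trended variance, dim genes left out, the mean of a gene's features and every feature tested. Each of these counts over all genes stayed within 1.5 times under them.

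Same-numbered deviations of the gapmer 1 bleomycin and PBS samples correlated at 0.09, 0.09 and 0.06. Samples with different numbers were not correlated for comparison, so these values do not decide whether the numbers pair the samples. With the replicate block, 1170 genes were higher, 574 lower, 2068 different from the control gapmer, 2 different from gapmer 3 and 719 kept. A trend with position on the array, with a range of 0.09 to 0.26 log2 units, was removed as an alternative chosen after seeing the data, and gave 1393 higher, 849 lower, 1717 and 2 different and 909 kept genes. Of 55 list counts above 0, 17 stayed within 1.5 times in every leave-out; of the 16 counts of 5 or more, 9 did. Signal over background limits genes near the dim level, Dnm3os among them.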

Other observations

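Lists not described above are given by their counts, beside 6.35% of all genes that rose and 3.13% that fell; a single call in such a list is near those shares. Of 15 glucocorticoid-responsive genes 5 rose and 1 fell (median 0.38, against -0.22 under the control gapmer). With the control gapmer 5 rose and 5 fell, and 4 of the gapmer 1 rises and the 1 fall were shared. Differences of response were called higher for 3 of these genes and lower for 2. The gapmer 1 rises numbered 2 without gapmer 1 PBS replicate 1 or 2 and 3 without gapmer 1 PBS replicate 3 or bleomycin replicate 4. Of 31 Wnt pathway genes 4 rose and 3 fell; the rises included Sfrp1, a secreted antagonist, which changed by 1.16. The rises numbered 2 without any one of the PBS arrays or bleomycin replicate 4, and the falls 0 without gapmer 1 PBS replicate 1 and 1 without PBS replicate 2 or 3 or bleomycin replicate 4. Of 12 insulin-like growth factor genes 2 rose and 2 fell, with Igf1 and the receptor Igf2r rising by 1.22 and 0.39. None of 18 cholesterol and fatty acid synthesis genes was called, 2 of 18 motile cilia genes fell (0 without gapmer 1 PBS replicate 1 or 2 or bleomycin replicate 4 or 5), and 1 of 22 antioxidant genes rose and 2 fell. The antioxidant rises numbered 0 without any one of the PBS arrays or bleomycin replicate 4 and 2 without bleomycin replicate 1, and the falls numbered 1 without any one of the PBS arrays or bleomycin replicate 4 and 4 without bleomycin replicate 3. Of 17 resident fibroblast genes 2 rose and 2 fell, the falls numbering 1 without any one of the PBS arrays or bleomycin replicate 4 and 4 without bleomycin replicate 2 or 3, with Mfap5, a microfibril protein, changing by 0.60 and Limch1, a regulator of myosin, by -0.55. The neutrophil list gave 1 rise, Lcn2, and 1 fall, S100a8. The S100a8 call held in 3 of 8 leave-outs, with a highest adjusted p by limma of 0.0895 without gapmer 1 PBS replicate 2. Of 27 cytokine and receptor genes 6 rose and none fell, with 2 rising without gapmer 1 PBS replicate 1 or 2 and 3 without bleomycin replicate 4, and Osmr, the oncostatin M receptor, changed by 0.59. Of 17 antigen presentation genes 1 rose, H2-DMb1 (0.34), while 12 rose under the control gapmer. The H2-DMb1 call held in 3 of 8 leave-outs, with a highest adjusted p by limma of 0.0839 without gapmer 1 PBS replicate 3. Of 11 mesothelial genes 1 rose and 1 fell.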
